A study of Mus musculus with 12 samples.

Results

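The DNA replication genes described here are 44 genes that load, activate and run the replication fork, supply its nucleotides, set its timing in the cell cycle or restore chromatin behind it. The rule was the gene symbol and used no measured value, but the list was drawn up with earlier results of these data known. Of the 44 genes, 43 were measured and tested, through 96 probe sets, of which 87 passed a filter on dim probe sets. The arrays held 13984 tested genes in all. Chaf1a was not analysed here, because no probe set carried its symbol alone in the platform annotation used.

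Affymetrix Mouse 430_2.0 arrays read the messenger RNA of mouse embryonic stem (ES) cells, with 3 biological replicates for each of 4 genotypes. The genotypes were wild type, Ring1B deficient (Ring1B-/-), Eed deficient (Eed-/-) and Ring1B/Eed double deficient. Both genes had been disrupted by gene targeting, and the double deficient line came from Eed deficient cells in which Ring1B was then targeted. The labels describe 1 line for each genotype, so a difference between genotypes cannot be told apart from a difference between lines. They do not say whether replicates were separate cultures, so p-values measure the spread between these samples, which may be technical.

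Ring1B is the catalytic core of Polycomb repressive complex PRC1, which ubiquitinates histone H2A, and Eed is a core subunit of PRC2, which methylates histone H3. Both complexes hold developmental genes silent in ES cells. DNA replication starts when the origin recognition complex, Cdc6 and Cdt1 load the Mcm helicase onto origins in G1. Cyclin E, cyclin A and their kinases then fire the origins, and Cdc45 and the GINS complex join Mcm to form the moving helicase. Most of these genes are transcribed toward S phase by E2F factors, which the RB proteins restrain. ES cells pass quickly from mitosis to S phase, with a short G1.

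The targeted genes were read first. Rnf2, which encodes Ring1B, was lower by log2 -0.86 in Ring1B deficient and -1.13 in double deficient arrays. Eed was lower by log2 -5.10 in Eed deficient and -4.27 in double deficient arrays. For both genes every array of the deficient genotypes lay below every array of the others. Whether the Rnf2 probe set lies in the deleted part is not given in the sources used here. Correlations between arrays of a genotype ran from 0.963 to 0.984. Array medians ran from 19.1 to 28.0, and the 3 prime to 5 prime signal ratio from 0.716 to 0.806 for Gapdh and from 1.27 to 1.66 for b-Actin. The defining markers of pluripotent cells had summed signals of 21476 to 22406 in wild type, 20160 to 22432 in Ring1B deficient, 17571 to 20825 in Eed deficient and 15338 to 17538 in double deficient arrays.

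E2F motifs are a known feature of replication gene promoters, so promoter windows were read for the 35 genes that have one in the RefSeq table of assembly GRCm38.p6. The motifs searched were TTTCCCGC, TTTGGCGC, TTTCGCGC and TTTGCCGC on both strands, which can overlap each other. In windows of 250 bases before to 50 bases after the annotated start, 16 of 35 genes (45.7%) held at least 1 match. In windows of the same length, 4.48% of the genes tested on the arrays held one. In the 250 bases before the start alone, 9 of 35 (25.7%) held a match, against 3.69% of tested genes. The windows below are shown because their genes hold a match before the start and combine it with a large difference between genotypes or between replicate numbers. Each is written 5′ to 3′ on the strand of the gene and ends at the base before the start. Capitals mark the match, in either orientation. Pola1, the catalytic subunit of the primase-linked polymerase, has its window at chrX:93632156-93632405 (minus strand). Orc1, a subunit of the origin recognition complex, has its window at chr4:108579204-108579453 (plus strand). Mcm6, a subunit of the helicase ring, has its window at chr1:128359706-128359955 (minus strand). E2f3, an E2F activator, has its window at chr13:29986064-29986313 (minus strand), 1 of its 2 annotated starts.
Pola1: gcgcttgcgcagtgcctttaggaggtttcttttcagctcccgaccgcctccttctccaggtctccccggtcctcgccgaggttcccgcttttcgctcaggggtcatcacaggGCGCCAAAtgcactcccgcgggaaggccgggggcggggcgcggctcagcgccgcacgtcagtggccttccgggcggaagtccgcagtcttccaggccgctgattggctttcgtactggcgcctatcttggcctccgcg
Orc1: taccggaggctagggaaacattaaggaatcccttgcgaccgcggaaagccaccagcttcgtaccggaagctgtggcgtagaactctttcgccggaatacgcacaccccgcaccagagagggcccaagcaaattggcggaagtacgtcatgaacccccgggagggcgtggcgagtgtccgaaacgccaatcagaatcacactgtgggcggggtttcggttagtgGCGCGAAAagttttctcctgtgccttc
Mcm6: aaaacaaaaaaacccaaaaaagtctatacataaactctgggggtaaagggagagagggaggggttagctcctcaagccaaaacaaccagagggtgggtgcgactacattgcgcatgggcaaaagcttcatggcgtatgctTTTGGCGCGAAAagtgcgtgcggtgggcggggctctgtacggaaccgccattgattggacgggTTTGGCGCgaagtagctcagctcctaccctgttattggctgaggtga
E2f3: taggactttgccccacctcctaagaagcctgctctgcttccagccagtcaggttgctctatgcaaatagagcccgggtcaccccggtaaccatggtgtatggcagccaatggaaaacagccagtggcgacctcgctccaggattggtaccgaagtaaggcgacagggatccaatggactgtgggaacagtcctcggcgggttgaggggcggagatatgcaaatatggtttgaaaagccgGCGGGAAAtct

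Counted from the start, the matches began at position -138 in Pola1, -27 in Orc1 and -11 in E2f3. Mcm6 held 3 matches, with the first at position -110 and the last at -47, and its first pair overlapped, which makes 1 longer run of capitals. Cdt1 held a match only after the start, at position 32, as did Lig1, at position 26 of 1 of its windows. The window of E2f1 read here did not hold these letters, nor did that of Rpa1. For E2f1 this was the only window in the table, and no other sequence of the gene was searched. It therefore does not show that E2f1 lacks such motifs at its promoter. Among the 9 genes with a match before the start, 6 were called lower in double deficient cells. So were 15 of the 26 genes with a window and no match there, E2f1 among them by that window. A match is a description of letters and not a measured binding site.

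The main comparison asked how the replication genes stood in cells without both Polycomb proteins. In double deficient arrays 22 of the 43 genes fell and 1, Ccne2, rose against wild type (limma, Benjamini-Hochberg adjusted p under 0.05 over all genes). Over all genes tested, 11.4% were lower and 19.5% higher by the same rule. The median log2 change of the 43 genes was -0.41, against 0.10 over all genes, and 40 of 43 (93%) lay below 0. By the probe set that stood for each gene, the decreases were moderate. E2f1 alone was at least 2-fold lower by it, 2.33% of the 43 genes against 2.32% of all genes. This count depends on the choice of probe set. Another kept probe set gave log2 changes of -1.15 for Cdt1, -1.08 for Pold1, -1.03 for Mcm5 and -1.01 for Mcm3. Some gave smaller changes, such as -0.13 for Mcm7. A log2 change of -0.5 or below was seen in 17 of 43 genes (39.5%), against 11.8% of all genes. In 31 of 43 genes every double deficient array lay below every wild type array, against 18% of all genes. Without 1 array at a time, 16 to 23 genes were called lower, and 13 of the 23 calls were made without every array in turn. The call of Ccne2 depended on wild type replicate 3, double deficient replicate 1 and double deficient replicate 2, each left out singly. The median of all genes itself lay 0.10 above 0 in this contrast. With each array centred on its median, 35 genes were lower and 0 higher, against 22.5% and 12.1% of all genes, so the count depends on the scaling while the direction does not. RNA was taken from whole cultures, where fewer cells in S phase and less RNA per cell cannot be told apart.

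**Figure D1:**
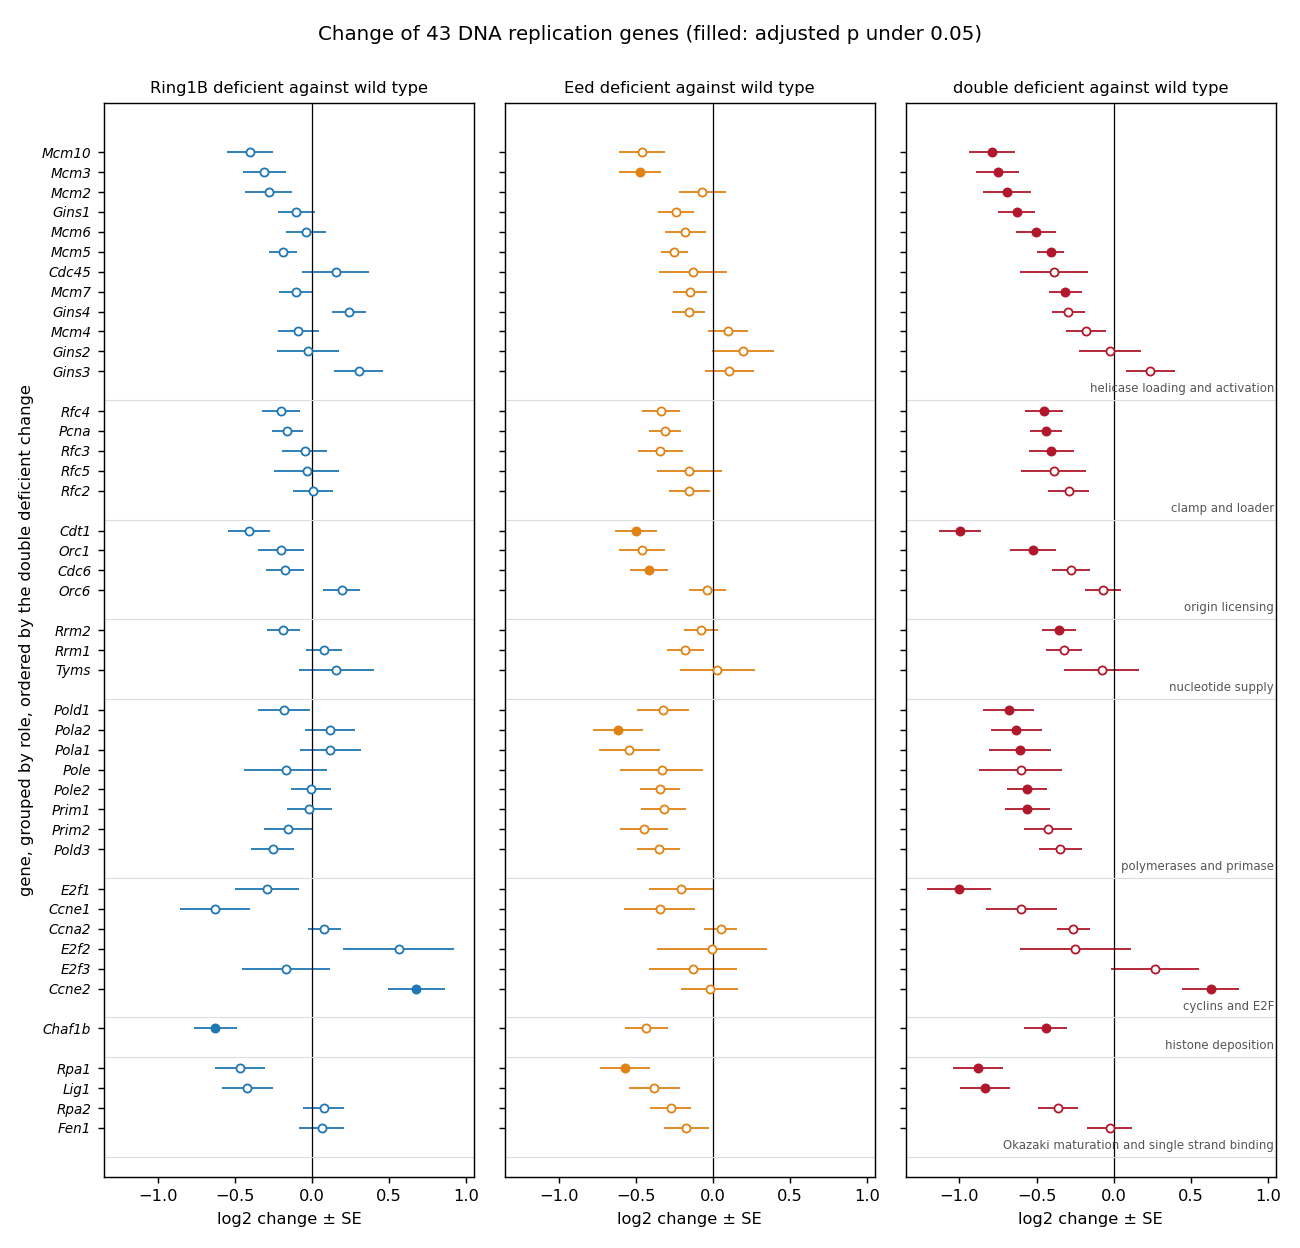
Log2 change against wild type (x axis) of each of the 43 tested replication genes (y axis, grouped by role) in Ring1B deficient, Eed deficient and double deficient arrays, 3 arrays per genotype. Points are limma estimates, bars are standard errors and filled points passed the adjusted p of 0.05. Of the double deficient points, 40 lie left of 0.

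Of the 12 genes of helicase loading and activation, 7 fell in double deficient cells (median log2 change -0.40) and none rose. These were Mcm2, Mcm3, Mcm5, Mcm6, Mcm7 and Mcm10 with the GINS subunit Gins1. Mcm3, a subunit of the helicase ring, had signals of 1649, 1428 and 1535 in wild type, 1268, 1289 and 1162 in Ring1B deficient, 1381, 969.7 and 1006 in Eed deficient and 1005, 813 and 919 in double deficient arrays. All mutant arrays lay below all wild type arrays. Its log2 change was -0.75 ± 0.14 (SE, limma adjusted p = 0.0012) in double deficient cells. The other probe sets of Mcm3 ran from -0.37 to -1.01. Mcm2, another ring subunit, had signals of 1012, 726 and 789 in wild type, 739, 667 and 652 in Ring1B deficient, 969.7, 755 and 687 in Eed deficient and 518, 477 and 550.3 in double deficient arrays. The double deficient arrays stood below all 9 others, while the single mutants overlapped wild type. Mcm2 fell by 0.69 on the log2 scale (limma adjusted p = 0.0040). Mcm5 had signals of 3312, 3197 and 3198 in wild type, 2700.4, 2936 and 2879 in Ring1B deficient, 3037, 2585 and 2560.4 in Eed deficient and 2520.0, 2456 and 2338 in double deficient arrays. Again the 3 double deficient arrays were the lowest of all, and wild type the highest, with a log2 change of -0.41 ± 0.09 (limma adjusted p = 0.0037). Other probe sets of Mcm5 gave -0.65 and, for a much dimmer one, -1.03. Mcm10, which holds the helicase to the polymerase at the fork, had signals of 423, 440.2 and 387 in wild type, 317, 329 and 296 in Ring1B deficient, 365, 296 and 253 in Eed deficient and 260.0, 212 and 246 in double deficient arrays. Every mutant array was below every wild type array, and Mcm10 fell by 0.79 in double deficient cells (limma adjusted p = 0.0013). The helicase genes that were not called lower were Mcm4, Gins2, Gins3, Gins4 and Cdc45, with log2 changes from -0.39 for Cdc45 to 0.24 for Gins3. Mcm4 stood at -0.18 ± 0.13 (limma adjusted p = 0.32) by the probe set that stood for it. Its other probe set, about as bright, gave -0.56, with double deficient signals of 969.5, 1104 and 1091 below those of all 9 other arrays, of which the lowest was 1285. The probe sets of Mcm4 therefore disagree. For Mcm6, called at -0.50, another probe set gave -0.81. Calls of Mcm6 and Mcm7 were not made without wild type replicate 3, and that of Mcm7 not without 6 further arrays, each left out singly.

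Of the 4 origin licensing genes, Cdt1 and Orc1 fell, and Cdc6 and Orc6 were not called (median -0.40). Cdt1, the loader that brings Mcm to origins, had signals of 2484, 1970.0 and 2394 in wild type, 1879, 1669.7 and 1594 in Ring1B deficient, 1869, 1315 and 1689 in Eed deficient and 1210.2, 1086 and 1116 in double deficient arrays. The double deficient arrays lay below all single mutant arrays, and these below all wild type arrays. The log2 change was -0.996 ± 0.136 (limma adjusted p = 1.2e-04) in double deficient cells. A further probe set of Cdt1 gave -1.15, while the third, dim one gave -0.06. Cdc6, an ATPase that works with Cdt1, had signals of 354, 407 and 375 in wild type, 304, 369.8 and 329 in Ring1B deficient, 289, 285 and 274 in Eed deficient and 319, 292 and 322 in double deficient arrays. Its lowest arrays were those of Eed deficient cells, and the double deficient change of -0.28 ± 0.12 was not called (limma adjusted p = 0.10). Orc1 was not called when wild type replicate 3 or double deficient replicate 2 was omitted.

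All 8 polymerase and primase genes lay below 0 in double deficient cells, with a median log2 change of -0.58, and 5 fell: Pola1, Pola2, Prim1, Pold1 and Pole2. Pold1, the catalytic subunit of polymerase delta, had signals of 219.9, 245 and 233 in wild type, 249, 220.3 and 155 in Ring1B deficient, 182, 178 and 194 in Eed deficient and 128, 154 and 149 in double deficient arrays. The double deficient arrays were the lowest, and Pold1 fell by 0.68 (limma adjusted p = 0.0073). Another probe set gave -1.08. Pola2, the second subunit of polymerase alpha, had signals of 195, 168 and 210.4 in wild type, 208, 204 and 209 in Ring1B deficient, 133, 118 and 117 in Eed deficient and 116, 99.5 and 154 in double deficient arrays. The 6 arrays without Eed lay below the 6 arrays with it. The log2 change in double deficient cells was -0.63 ± 0.16 (limma adjusted p = 0.010). Without double deficient replicate 2 it was not called, at a limma adjusted p of 0.0501. Pole, the catalytic subunit of polymerase epsilon, had signals of 321, 178 and 236 in wild type, 289, 165 and 198 in Ring1B deficient, 277, 139 and 174 in Eed deficient and 167, 134 and 168 in double deficient arrays. Its arrays spread widely within each genotype, and the change of -0.60 ± 0.27 was not called (limma adjusted p = 0.11). Pola1 was not called when wild type replicate 1 or 3 was omitted, nor when double deficient replicate 2 or 3 was.

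Of the sliding clamp and its loader, Pcna, Rfc3 and Rfc4 fell, and Rfc2 and Rfc5 were not called (median -0.40 over the 5 genes). Pcna, the clamp that tethers polymerases to DNA, had signals of 3414, 3738 and 3198 in wild type, 2704, 3274 and 3308 in Ring1B deficient, 2725, 2986 and 2628 in Eed deficient and 2549.6, 2683 and 2396 in double deficient arrays. Eed deficient and double deficient arrays lay below all wild type arrays, and Pcna changed by -0.44 ± 0.10 in double deficient cells (limma adjusted p = 0.0058). Rfc5, a loader subunit, had signals of 1249.6, 824 and 1095 in wild type, 1142, 753 and 1219 in Ring1B deficient, 1148, 728 and 982 in Eed deficient and 873, 717 and 799 in double deficient arrays. Its genotypes overlapped. Rfc3 was called with an adjusted p of 0.0499 (limma), and its call was not made without 10 of the 12 arrays, each left out singly. The call of Rfc4 was not made without double deficient replicate 3.

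Of the 4 genes for single strand binding and Okazaki fragment maturation, Rpa1 and Lig1 fell and Rpa2 and Fen1 were not called. Rpa2 stood at -0.36 ± 0.13 (limma adjusted p = 0.0504), and its other probe set, about as bright, gave -0.54. Rpa1, the large subunit of the protein that coats single stranded DNA, had signals of 2379, 1846 and 2446 in wild type, 1663, 1403 and 1731 in Ring1B deficient, 1726, 1128 and 1684 in Eed deficient and 1247, 1108 and 1241 in double deficient arrays. Every mutant array lay below every wild type array. The log2 change in double deficient cells was -0.88 ± 0.16 (limma adjusted p = 0.0012), and its other probe set gave -0.87. Lig1, the ligase that seals Okazaki fragments, had signals of 718, 566 and 624 in wild type, 531, 449.7 and 438 in Ring1B deficient, 608, 383 and 489 in Eed deficient and 356, 324 and 380.1 in double deficient arrays. The double deficient arrays were the lowest of all, and the change was -0.83 ± 0.17 (limma adjusted p = 0.0019). Fen1, the nuclease that trims Okazaki flaps before Lig1 acts, stood at -0.03 ± 0.14 (limma adjusted p = 0.91), and its other probe set gave 0.22.

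Among the nucleotide supply genes 1 of 3 fell. Rrm2, the regulated subunit of ribonucleotide reductase, had signals of 2139, 2194 and 2376 in wild type, 2015, 1944 and 1932 in Ring1B deficient, 2409, 1781 and 2210.5 in Eed deficient and 1794, 1671 and 1779 in double deficient arrays. The double deficient arrays lay below all wild type and Ring1B deficient arrays, with a change of -0.35 ± 0.11 (limma adjusted p = 0.025) that was not called without wild type replicate 3 or any 1 double deficient array. Rrm1, the large subunit, stood at -0.32 ± 0.12 (limma adjusted p = 0.054), and its other kept probe set gave -0.45. Tyms, thymidylate synthase, had signals of 21.4, 18.6 and 21.9 in wild type, 22.7, 20.6 and 27.9 in Ring1B deficient, 25.7, 24.0 and 15.003 in Eed deficient and 13.7, 27.3 and 18.7 in double deficient arrays. These dim values overlapped in all genotypes, and a probe set that Tyms shares with a pseudogene symbol was left out.

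The cyclins and E2F factors were the group with changes both ways. E2f1, an activator of replication genes, had signals of 122, 135 and 168 in wild type, 141, 109 and 96.2 in Ring1B deficient, 168, 97.0 and 109 in Eed deficient and 70.8, 68.3 and 64.1 in double deficient arrays. The single mutants overlapped wild type, and the 3 double deficient arrays lay below all 9 others. E2f1 fell by 1.002 on the log2 scale (SE 0.21, limma adjusted p = 0.0026), the largest change of the 43 genes in this contrast. A further probe set gave -0.91, and the third, which was too dim to pass the filter, gave 0.26. Ccne2, cyclin E2, had signals of 140.1, 141 and 122 in wild type, 235, 160.2 and 271 in Ring1B deficient, 129, 118 and 152 in Eed deficient and 232, 212 and 189 in double deficient arrays. The 6 arrays without Ring1B lay above the 6 arrays with it. Ccne2 rose by 0.63 ± 0.19 in double deficient cells (limma adjusted p = 0.020). Ccne1, cyclin E1, had signals of 640.2, 414 and 503 in wild type, 399, 243 and 364 in Ring1B deficient, 508, 318 and 399.9 in Eed deficient and 397, 272 and 350.0 in double deficient arrays. Its log2 change of -0.60 ± 0.23 lay on the other side of 0 from that of Ccne2 and was not called (limma adjusted p = 0.061). Ccna2, cyclin A2, had signals of 1055, 1079.6 and 1036 in wild type, 987, 1181 and 1192 in Ring1B deficient, 1095, 1180.4 and 1016 in Eed deficient and 879, 901 and 861 in double deficient arrays. Its double deficient arrays were the lowest of all, by a small step of -0.26 ± 0.11 that was not called (limma adjusted p = 0.078). The other probe set of Ccna2 gave -0.41, with double deficient signals of 589, 602 and 589 below those of all other arrays. E2f2 and E2f3 stood at -0.25 ± 0.36 and 0.27 ± 0.28 and were not called.

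Chaf1b, a subunit of the factor that places new histones behind the fork, had signals of 261, 326 and 307 in wild type, 187, 211 and 175 in Ring1B deficient, 226, 221 and 209 in Eed deficient and 225, 236 and 193 in double deficient arrays. All mutant arrays lay below all wild type arrays. Chaf1b fell by 0.44 in double deficient cells (limma adjusted p = 0.028). It was no longer called when wild type replicate 2 or 3, or double deficient replicate 1 or 3, was omitted.

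**Figure D2:**
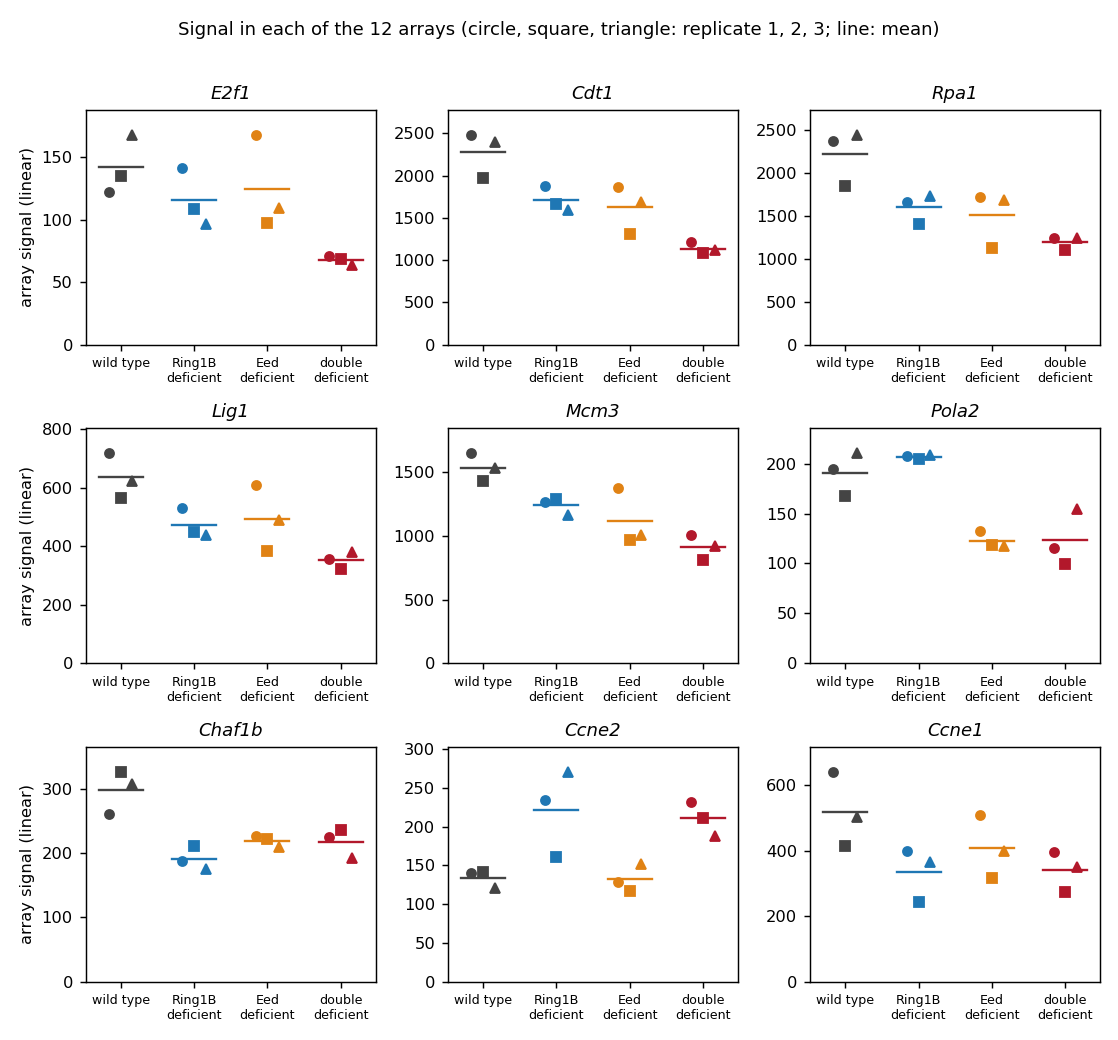
Array signal on a linear scale (y axis) of 9 replication genes in each of the 12 arrays, by genotype (x axis). Symbols mark replicate 1, 2 and 3, and the line is the mean of 3 arrays. The double deficient arrays of E2f1 lie between 64.1 and 70.8, below all others, and the arrays without Ring1B are the highest for Ccne2.

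The single mutants show the replication genes with either Ring1B or Eed lost. In Eed deficient cells 5 of 43 genes fell and none rose, against 4.56% of all genes lower and 10.8% higher. The median log2 change was -0.25 (all genes 0.03), and 38 of 43 genes lay below 0. The 5 were Pola2 (-0.61 ± 0.16), Rpa1 (-0.57 ± 0.16), Cdt1 (-0.50 ± 0.14), Mcm3 (-0.47 ± 0.14) and Cdc6 (-0.41 ± 0.12), with limma adjusted p from 0.021 to 0.038. At an unadjusted p under 0.05, 18 of 43 genes were lower and 0 higher. Over all 13984 genes 4115 differed at that p, 1542 of them lower. In 19 of 43 genes (44.2%) every Eed deficient array lay below every wild type array, against 11.8% of all genes. The number called was unstable. It was 0 without wild type replicate 3, 0 without Eed deficient replicate 2, 1 without Eed deficient replicate 3 and 3 without wild type replicate 1. It was 9 with array medians centred and 2 after quantile normalization. With replicate number in the model it was higher, as given at the end. None of the 5 calls was made without every array in turn. Eed deficient replicate 1 was the highest of the 3 Eed deficient arrays for Mcm2, Mcm3, Mcm5, Mcm10, Cdt1, Lig1 and E2f1. Other genes differed, and Pcna, Prim1, Gins2, Gins4 and Rfc3 among them were highest in Eed deficient replicate 2. The part of this array in the unstable count was not tested.

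In Ring1B deficient cells 1 of 43 genes rose and 1 fell, against 4.68% and 2.5% of all genes. More genes were called lower with replicate number in the model, as given at the end. The median log2 change was -0.10 (all genes -0.01), and 29 of 43 genes lay below 0. Ccne2 rose by 0.68 ± 0.19 (limma adjusted p = 0.041) and Chaf1b fell by 0.63 (limma adjusted p = 0.015). At an unadjusted p under 0.05, 9 of 43 genes differed, 7 of them lower. Over all 13984 genes 2862 differed at that p, 1312 of them lower. With both directions pooled, the replication genes thus differed about as often as all genes. A larger part of their differences was lower, 7 of 9 against 1312 of 2862. In 9 of 43 genes (20.9%) every Ring1B deficient array lay below every wild type array, against 10.8% of all genes. The call of Ccne2 was lost without any 1 of 8 arrays, all but Ring1B deficient replicate 2 and the 3 Eed deficient arrays. Chaf1b was not called when the wild type array of replicate 2 or 3 was omitted, nor when Ring1B deficient replicate 3 was, and 3 genes were called lower without Eed deficient replicate 2. Ccne1 had the lowest log2 change of the 43 genes, -0.63 ± 0.23, and was not called (limma adjusted p = 0.13).

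**Figure D3:**
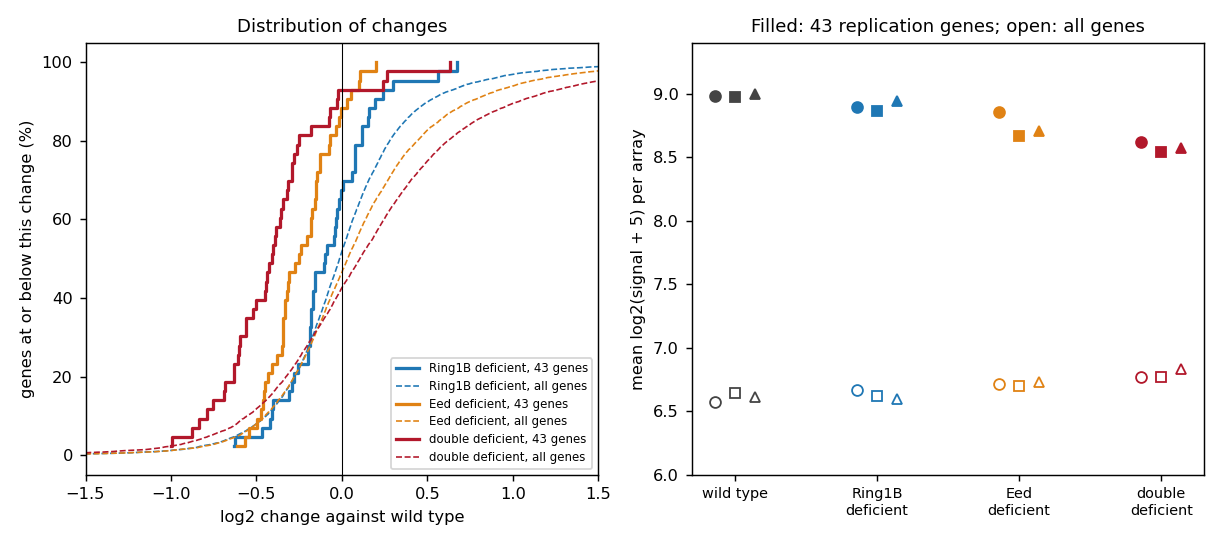
Left, cumulative share of genes (y axis, percent) at or below each log2 change against wild type (x axis), for the 43 replication genes (solid) and all 13984 tested genes (dashed) in the 3 mutants. Right, mean log2(signal + 5) per array over the 43 genes (filled) and over all tested genes (open), by genotype, with symbols for replicate 1, 2 and 3. The filled points of the genotypes do not overlap, from 8.97 to 8.99 in wild type down to 8.54 to 8.62 in double deficient arrays.

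The genotypes differed in the mean over the genes. The mean log2 signal over the 43 genes was 8.98 ± 0.01 (SD, n = 3) in wild type arrays. It was 8.90 ± 0.04 in Ring1B deficient arrays, 8.74 ± 0.10 in Eed deficient arrays and 8.58 ± 0.04 in double deficient arrays. No array of 1 genotype overlapped the next, although the nearest Ring1B and Eed deficient arrays lay at 8.861 and 8.857. Over all genes the mean went the other way, from 6.61 ± 0.04 in wild type to 6.79 ± 0.04 in double deficient arrays. The lowest genotype mean lay in double deficient cells for 33 of 43 genes (76.7%, against 25.4% of all genes). The highest lay in wild type for 26 (60.5%, against 27.3%). In 14 (32.6%, against 15.7%) it lay in Ring1B deficient cells. In 17 genes (39.5%, against 9.41%) the means stepped down from wild type over Ring1B deficient and Eed deficient to double deficient cells.

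The double deficient cells were then set against each single mutant, to ask what the second loss added. Against Ring1B deficient cells, 13 of 43 genes were lower and none higher, against 5.98% and 12.7% of all genes (median -0.35). These were Mcm3, Mcm6, Gins1, Gins4, Cdt1, Rrm1, Pola1, Pola2, Prim1, Pole2, Ccna2, E2f1 and Rpa2. In 30 of 43 genes (69.8%) the double deficient arrays all lay below the Ring1B deficient arrays, against 14% of all genes. Pola2 had the largest called change, -0.75 ± 0.16 (limma adjusted p = 0.0070), followed by Pola1 at -0.73 ± 0.20 (limma adjusted p = 0.023). Gins4, a GINS subunit not called against wild type, was 942, 1118 and 992 in Ring1B deficient and 675, 731 and 693 in double deficient arrays, which do not overlap. It changed by -0.53 ± 0.11 (limma adjusted p = 0.0051). The number called was 7 without Ring1B deficient replicate 2 or replicate 3, 6 without double deficient replicate 1, 5 without replicate 2 and 4 without replicate 3. Gins1, Gins4, Cdt1 and Pola2 were called without every array in turn.

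Against Eed deficient cells no gene was called by limma in either direction, against 0.822% of all genes lower and 1.07% higher. This depended on the model, since genes were called in both directions with replicate number included, as given at the end. At an unadjusted p under 0.05, 11 of 43 genes differed, 10 of them lower. Over all 13984 genes 2419 differed at that p, 955 of them lower. Nearest to a call were Mcm2 at -0.62 ± 0.15 (limma adjusted p = 0.054) and E2f1 at -0.80 ± 0.21 (limma adjusted p = 0.065). The median was -0.17 (all genes 0.06), and 36 of 43 genes (83.7%) lay below 0, against 42.7% of all genes. In 11 of 43 genes (25.6%) every double deficient array lay below every Eed deficient array, against 9.55% of all genes. In 2 (4.65%) every one lay above, against 15.4%. Omitting wild type replicate 1, Eed deficient replicate 2 or Eed deficient replicate 3 gave 1 gene lower, and omitting Ring1B deficient replicate 2 gave 1 higher. Between the single mutants, Pola2 (-0.73) and Ccne2 (-0.70) were lower in Eed deficient than in Ring1B deficient cells and no gene was higher, against 1.11% and 3.37% of all genes. Both calls were lost without Ring1B deficient replicate 1, Ring1B deficient replicate 3, Eed deficient replicate 2 or Eed deficient replicate 3. In this contrast 34 of 43 genes (79.1%) lay below 0, against 43.5% of all genes. In 11 (25.6%) every Eed deficient array lay below every Ring1B deficient array, against 7.87% of all genes. In 0 every one lay above, against 13.9%.

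Whether the second loss acted differently in the absence of the first was tested by an interaction term, the step from Eed deficient to double deficient cells less the step from wild type to Ring1B deficient cells. No replication gene passed it by limma, against 0.708% of all genes higher and 1.19% lower. With replicate number in the model a positive term was called, as given at the end. At an unadjusted p under 0.05, 3 of 43 genes passed, 2 of them negative, against 2319 of 13984 over all genes, 1105 of them negative. The median term was -0.13, against 0.06 over all genes. Of the 43 terms 29 (67.4%) lay below 0, against 44.4% of all genes. For genes that fell in double deficient cells they ran from -0.51 for E2f1 to 0.62 for Chaf1b. Terms between these included -0.34 for Mcm2, -0.29 for Gins1, -0.28 for Mcm6 and -0.09 for Cdt1. Others were 0.03 for Mcm3, 0.07 for Mcm10 and 0.16 for Rpa1. A term that misses the threshold does not show that the losses add up.

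The replicate numbers were compared as well, since equal numbers occur in every genotype. Of the 43 genes, 8 (18.6%) differed by replicate number in an F test within genotypes (limma adjusted p under 0.05), against 18.7% of all genes, so the share was that of the arrays as a whole. The 8 were Ccne1, Rfc5, Pole, Gins2, Rpa1, E2f3, E2f2 and Cdt1. Replicate 2 was the array that stood apart. Replicate 2 against replicate 1 gave 2 genes higher and 9 lower (12.3% and 11.7% of all genes), and replicate 3 against replicate 2 gave 3 higher and 0 lower (4.39% and 4.96%). Replicate 3 against replicate 1 gave 0 calls by limma among these genes and among all genes, with 6 of the 43 and 1621 of all genes at an unadjusted p under 0.05. The largest F was that of Ccne1, whose replicate 2 was the lowest array of its genotype in 4 of 4 genotypes and whose replicate 2 to replicate 1 change was -0.63 ± 0.09 (limma adjusted p = 3.0e-04). Rfc5 changed by -0.53 ± 0.09 and Pole by -0.73 ± 0.12, also lowest in replicate 2 in all 4 genotypes. Gins2, which belongs to the GINS complex, went the other way, and its signals show the pattern. They were 447, 701 and 592 in wild type, 438, 667 and 599 in Ring1B deficient, 546, 779 and 659 in Eed deficient and 515, 672 and 510.1 in double deficient arrays. Replicate 2 was the highest in each genotype, by 0.53 ± 0.09 (limma adjusted p = 8.6e-04), and the genotypes overlapped. E2f3 had signals of 163, 104 and 92.1 in wild type, 141, 69.8 and 109 in Ring1B deficient, 144, 75.9 and 108 in Eed deficient and 149.7, 114 and 163 in double deficient arrays. Replicate 2 was the lowest in all genotypes but wild type. With Ring1B deficient replicate 2 or Eed deficient replicate 2 left out, 5 genes were called in place of 8. The calls of E2f3, Rpa1, E2f2 and Cdt1 were lost without at least 1 array, among them Ring1B deficient replicate 2 for E2f3 and Eed deficient replicate 2 for Rpa1. Of 33 genes of G2 and mitosis, 13 were higher and 2 lower in replicate 2 than in replicate 1. Their part in the result was not tested.

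**Figure D4:**
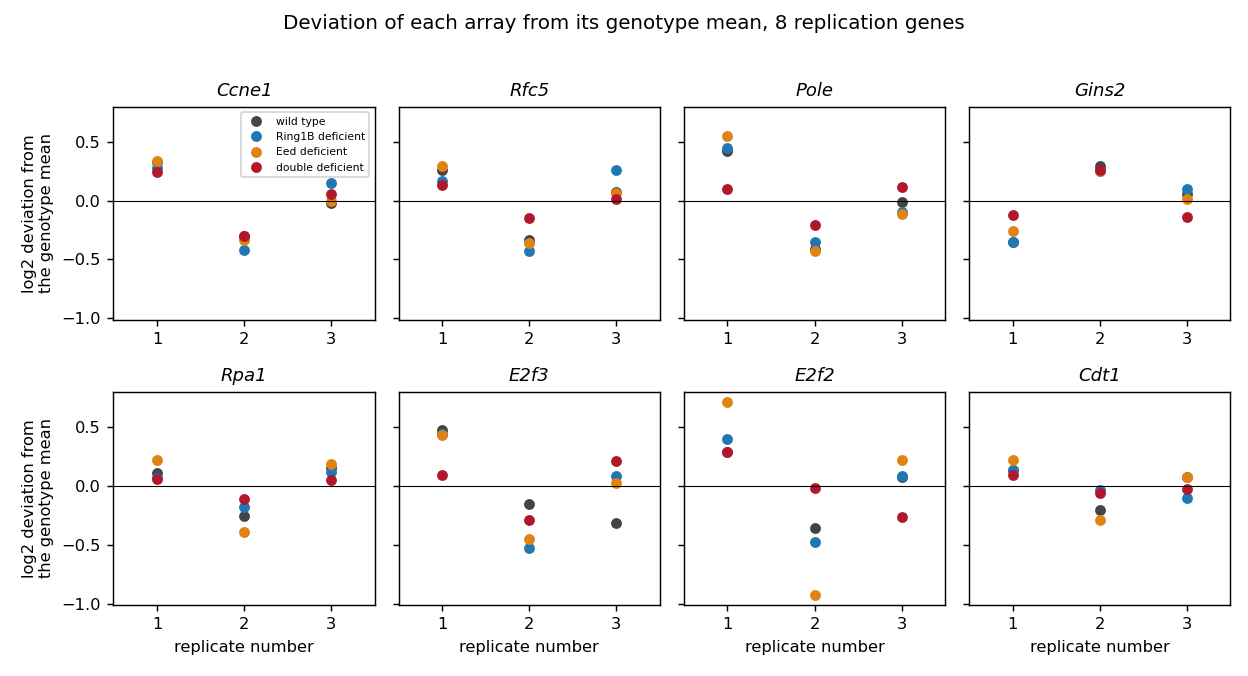
Deviation of each array from the mean of its genotype, in log2(signal + 5) (y axis), by replicate number (x axis), for the 8 replication genes called by the F test. Colours are the 4 genotypes, 1 point per array. Replicate 2 lies above 0 in all genotypes for Gins2 and below 0 in all genotypes for the other 7 genes, close to 0 for E2f2 in double deficient arrays.

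Neighbouring gene groups were read for context. Their counts stand against the shares of all genes given above: 11.4% lower and 19.5% higher in double deficient, 4.56% and 10.8% in Eed deficient and 2.5% and 4.68% in Ring1B deficient cells. Of 44 further replication genes, 15 fell and none rose in double deficient cells (median -0.32). Pold2, the small subunit of polymerase delta, changed by -1.20, Timeless, a fork protection factor, by -1.03, Atad5, which unloads Pcna, by -0.73 and Pclaf, a Pcna partner, by -0.70. The number was 7 without double deficient replicate 2. In Eed deficient cells 5 of the 44 fell, with Atad5 at -0.65, Pold2 at -0.57, Pclaf at -0.44 and Dbf4, the activator of the origin firing kinase Cdc7, at -0.38. The number was 3 without wild type replicate 1, Ring1B deficient replicate 1, Eed deficient replicate 3 or any double deficient array, and 8 without Eed deficient replicate 1. In Ring1B deficient cells Atad5 alone fell, by 0.64, and was not called once wild type replicate 3 or Ring1B deficient replicate 2 was omitted.

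Of 33 genes of G2 and mitosis, 15 fell in double deficient cells and none rose (median -0.40), with log2 changes of -0.94 for the spindle protein Nusap1, -0.91 for the kinase Aurkb, -0.86 for the topoisomerase Top2a and -0.73 for the kinetochore protein Ndc80. Their median was as low as that of the replication genes, at -0.40 against -0.41. In Eed deficient cells 3 fell, Ndc80 (-0.53), Ttk (-0.48) and Kif11 (-0.45). The number was 0 without Eed deficient replicate 3 and 1 when either wild type replicate 2 or 3, Eed deficient replicate 1, or either double deficient replicate 2 or 3 was omitted. A single gene of this list was called higher in Eed deficient cells without wild type replicate 2, and in double deficient cells without double deficient replicate 2. In Ring1B deficient cells limma called none, with 3 of 33 genes at an unadjusted p under 0.05, against 2862 of 13984 over all genes.

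Of 24 regulators of G1 and of the RB-E2F switch, 7 rose and 4 fell in double deficient cells (median 0.04), against 19.5% and 11.4% of all genes. The largest were the cyclin gene Ccnd2 (2.24), the kinase inhibitors Cdkn2b (2.23) and Cdkn2a (1.87), and the E2F partner Tfdp2 (-1.06). In Eed deficient cells 6 of the 24 rose and 3 fell, against 10.8% and 4.56% of all genes. The largest there were Ccnd2 (2.23), Cdkn2b (1.53), Cdkn2a (1.52) and Cdkn2c (1.29). In Ring1B deficient cells 3 of the 24 rose and 2 fell, against 4.68% and 2.5% of all genes. Cdkn2a stood at 1.21, Cdkn1c at 1.15, Rb1 at -0.72 and E2f6 at 0.69. The number lower was 2 in double deficient cells without double deficient replicate 2, 1 in Eed deficient cells when replicate 3 of wild type or of Eed deficient cells was omitted, and 0 or 1 in Ring1B deficient cells without any of 10 arrays.

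**Figure D5:**
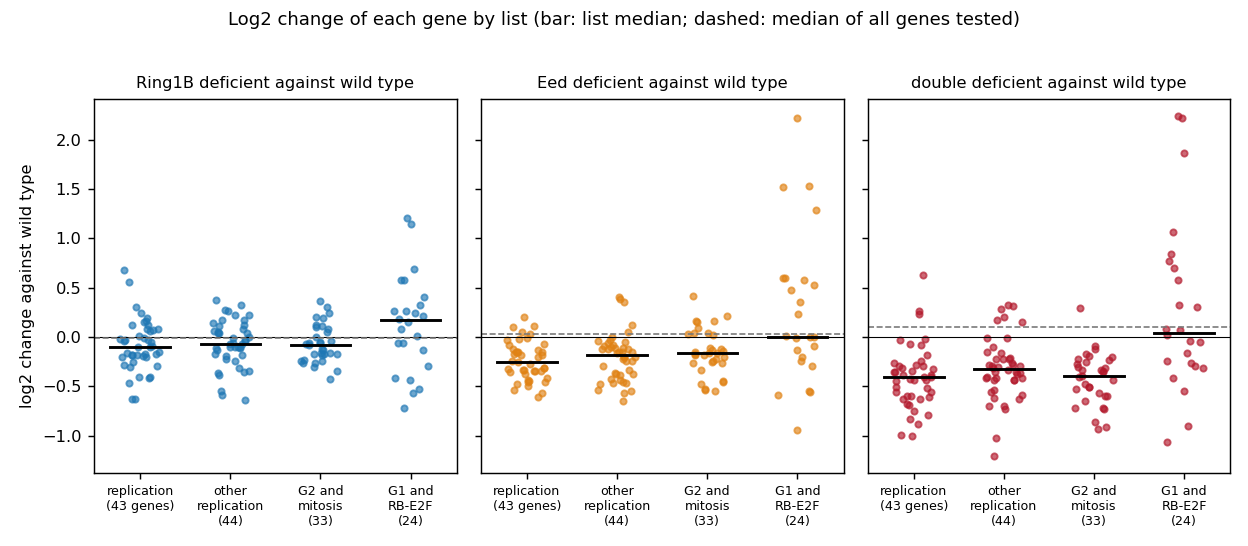
Log2 change against wild type (y axis) of each gene of 4 lists (x axis, with the number of genes) in the 3 mutants. Bars are list medians and the dashed line is the median of all genes tested. In double deficient cells the medians are -0.41 for the replication genes, -0.32 for other replication genes, -0.40 for G2 and mitosis genes and 0.04 for the G1 and RB-E2F regulators.

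Markers of other cell types moved with the genotypes too. All 10 endoderm markers rose in every mutant, with summed signals of 490 to 534 in wild type, 2519 to 3492 in Ring1B deficient, 2938 to 4893 in Eed deficient and 5271 to 5679 in double deficient arrays. Of 11 fibroblast and feeder cell markers, 8 rose in double deficient, 3 in Eed deficient and 0 in Ring1B deficient cells, with 1 of 11 at an unadjusted p under 0.05 in the last. Their summed signals were 502 to 612 in wild type, 421 to 599 in Ring1B deficient, 769 to 2234 in Eed deficient and 1828 to 2281 in double deficient arrays, with Eed deficient replicate 3 the highest of its genotype. Of 6 trophoblast markers 5 rose in double deficient cells, 5 in Eed deficient and 4 in Ring1B deficient cells, with summed signals of 645 to 1303 in wild type and 4576 to 7419 in double deficient arrays. Of 10 pluripotent cell markers 7 fell in double deficient cells, 1 fell in Eed deficient cells and 0 fell in Ring1B deficient cells. A summed signal above 0 does not show that a cell type was present. The part of these cell types in the change of the replication genes was not tested.

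Several probe sets could be compared for 33 of the 43 genes. In 27 of them all kept probe sets had the same sign in double deficient against wild type arrays. Of 34 further probe sets with a mean signal of at least 50 in a genotype, 31 were lower in double deficient cells.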

How the data were processed

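Total RNA of 12 mouse ES cell samples was extracted with Trizol and hybridised to single-colour arrays by a commercial provider, per the labels' protocols. The deposited intensity values came from MAS5, as the submitters' processing notes state, and the authors' version and settings were not given in the sources used here. Every array had the same trimmed mean, with 2% left off at each end, of 100, so no further normalization was applied, and array number limits the precision.

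Probe sets were kept if at least 3 arrays exceeded their array's 40th percentile (30027 of 45101, which include 64 controls), and 932 probe sets with several symbols were left out. The kept probe set with the highest mean stood for a gene. Log2(signal + 5) of 13984 genes was fitted with limma 3.58.1 (lmFit, eBayes with trend) in R 4.3.3 over all arrays with 1 mean per genotype. P-values were Benjamini-Hochberg adjusted over all genes and called under 0.05. Fold changes are on this scale, which understates changes of dim genes. The scripts were tested on simulated data. Replicate number was tested by an F test beside genotype.

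Per-array values are given for fixed genes, genes called in a single mutant, the 10 largest double deficient changes and the 6 largest F for replicate number. Gins4 and the markers' sums were added after their values were seen. From the neighbouring lists up to 4 genes per contrast are named. The members and lists were chosen with earlier results of these data known. Promoters came from RefSeq (GRCm38.p6). Bases after the start are not shown, so windows were taken from genes with a match before it. Alternatives changed the normalization, added value, dim filter, probe set rule, trend, samples and replicate block.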

Additional observations from a re-analysis of the deposited data

Results flagged for a closer look

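The neighbouring lists held 44, 24 and 33 tested genes. Of these, 2 had a Ring1B effect that differed between cells with and without Eed, by the limma interaction term. Over all genes 0.708% were called higher and 1.19% lower by this term, a share that 2 genes do not clearly exceed. Cdkn1c, a kinase inhibitor, changed by 1.15 from wild type to Ring1B deficient and by -0.28 from Eed deficient to double deficient cells, a difference of -1.42 ± 0.26 (adjusted p = 0.014). Mad2l1, a spindle checkpoint gene, changed by 0.30 and -0.61, a difference of -0.92 ± 0.21 (adjusted p = 0.042). None of the replication genes passed this limma test, fitted without replicate number. At an unadjusted p under 0.05 there were 3 of 43, against 2319 of 13984 over all genes.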

How the results depend on the processing

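All 53 changes of single genes that were called kept their direction in every setting run (24 for genotypes, 21 for replicate number), and 17 were called in each. Ring1B deficient against wild type had 0 genes higher with no dim filter, with no intensity trend or with only the groups compared. It had 0 lower with probe sets averaged or only the groups compared, and 2 without the 4 arrays numbered 2, a setting chosen after seeing the data, as was centring on the median of tested genes. Eed deficient against wild type had 2 lower by quantile normalization, 9 with array medians centred, 8 with the stricter filter, 1 with no trend, 0 with only the groups compared, 3 without the arrays numbered 2 and 16 with tested genes centred, where its median was -0.38 (-0.33 with array medians). Double deficient against wild type had 0 higher under both centrings, 35 and 34 lower, and medians of -0.66 and -0.61. Against Eed deficient cells it had 1 lower by quantile normalization, with 20 added, with probe sets averaged or without the arrays numbered 2, and 4 and 3 under the centrings. Against Ring1B deficient cells it had 8 lower by quantile normalization or no trend, 7 without the arrays numbered 2, and 30 and 28 under the centrings. Eed against Ring1B deficient cells had 1 lower with 1 added, no filter, no trend or only the groups compared, and 4 with tested genes centred. Replicate number had 5 genes with no trend.

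Without 1 array in turn, Ring1B deficient cells had 0 to 1 higher and 0 to 3 lower (median -0.13 to -0.09), Eed deficient cells 0 to 7 lower (-0.30 to -0.21), and double deficient cells 0 to 1 higher and 16 to 23 lower (-0.44 to -0.39). Double deficient cells had 0 to 1 higher and 0 to 1 lower than Eed deficient cells and 4 to 15 lower than Ring1B deficient cells. Eed deficient cells had 0 to 2 lower than Ring1B deficient cells. Replicate number had 5 to 10. The cause of these shifts was not tested.

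With the replicate block, the genes called lower against wild type numbered 7 for Ring1B deficient cells, 19 for Eed deficient cells and 31 for double deficient cells. Double deficient cells then had 1 higher and 7 lower than Eed deficient and 26 lower than Ring1B deficient cells, Eed deficient cells 5 lower than Ring1B deficient cells, and the interaction 1 positive. The labels do not say that equal numbers were handled together. Of 18 same-numbered pairs, 13 had a correlation of deviations over 0.1 (-0.05 to 0.61), and 9 of 12 arrays correlated best with their own number. The range was 0.16 to 0.43 for number 1, 0.27 to 0.61 for number 2 and -0.05 to 0.18 for number 3. Arrays numbered 1 and those numbered 2 thus deviated together, but not every pair exceeded 0.1, the limit set for pairing, so the fit without the block was kept.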
